A study of Mus musculus with 9 samples.

Results

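The healthy spinal cord transcriptome was described from 3 libraries of naive mice, out of 9 libraries in the series. Members were chosen by the treatment label alone: the naive libraries entered, and the 6 libraries of mice with experimental autoimmune encephalomyelitis, given vehicle or the peptide GV1001, did not. All 3 naive libraries came from whole spinal cord of mice labelled wild type (WT) with the treatment Naïve. The labels give no strain, age, sex or cord level, and do not say whether the replicates came from separate animals, so every SD below measures the spread between these libraries, which may be technical. RNA came from a TRIzol or a Maxwell RSC miRNA kit extraction, without a statement of which method served which sample. Libraries were made with a QuantSeq 3′ kit, which reads the ends of polyadenylated transcripts.

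The spinal cord carries long axon tracts, wrapped in myelin by oligodendrocytes, around a butterfly of grey matter that holds motor neurons, inhibitory and excitatory interneurons and astrocytes. Microglia are its resident macrophages, ependymal cells line its central canal, and meninges and nerve roots cover its surface. The sensory neurons that feed the dorsal horn lie outside the cord, in the dorsal root ganglia. Each cord level keeps the combination of Hox genes set in the embryo, with high-numbered paralogs toward the tail.

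Total counts were 5612308, 5792583 and 5542411 in naive replicates 1, 2 and 3. A level is given in CPM, the counts of a gene scaled so that each library sums to 1000000. A gene was called detected at 3 counts or more, because a count of 0 allows up to 3 counts, which is 0.518 to 0.541 CPM here and covers counting error only. Of 40879 gene symbols, 23810 had a count in at least 1 naive library, and 17689 to 18074 were detected per library. In all 3 libraries 16135 genes were detected. The libraries did not stand equally close: replicate 2 stood apart in sensory ganglion, meningeal, Schwann cell and posterior Hox genes, replicate 3 in skeletal muscle genes, and replicate 1 in blood genes. Values are therefore given for each library.

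Few genes held much of the RNA. The 66 genes at 1000 CPM or more carried 24.9% of all counts, the 1876 genes from 100 to 1000 CPM carried 42.3%, and the 8153 genes from 10 to 100 CPM carried 30.2%. The 5778 genes from 1 to 10 CPM carried 2.37%, and the 7937 genes with a count but a mean under 1 CPM carried 0.237%. Between 724 and 766 genes per library were enough to reach 50% of its counts. The 10 most abundant genes took 14.4% to 15.2% of a library, and the 1000 most abundant took 54.5% to 55.3%. Protein-coding genes held 87.4% ± 0.195 (SD, n = 3) of counts and long noncoding RNA genes 2.63% ± 0.140. Ribosomal RNA genes held 5.95% ± 0.333. Symbols with no match in RefSeq, which are in none of these classes, held 3.68% ± 0.0747, of which Gm26917 alone held 2.98%.

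At the head of the ranking stood mitochondrial ribosomal RNA. mt-Rnr2, the large ribosomal RNA of the mitochondrion, was at 41274, 37747 and 42870 CPM, and mt-Rnr1, the small one, ranked 3 at 19140, 18075 and 19433 CPM. Both were lowest in replicate 2. Between them ranked Gm26917, a predicted gene with no match in RefSeq, at 29157, 30498 and 29739 CPM. Of the protein genes of the mitochondrion, ND1, CYTB, ND4, ND2 and COX1, subunits of the respiratory chain, were at ranks 4, 5, 7, 11 and 20. The mitochondrial protein genes made up 3.75% to 4.17% of a library.

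Beside Gm26917, nuclear genes among the top 20 included genes of myelin, ion pumping, astrocytes and general cell machinery, and noncoding RNAs. Mbp, myelin basic protein, led those that code for protein at rank 6. Atp1b1, a subunit of the sodium pump, ranked 16 at 2983 ± 205 CPM (SD, n = 3). Sparcl1, a matrix protein made by astrocytes, ranked 14 at 3415 ± 69.7 CPM, and S100b, a calcium-binding protein of astrocytes and some oligodendrocytes, ranked 18. The noncoding RNAs Meg3, from an imprinted locus active in neurons, and Malat1, a nuclear RNA, ranked 8 and 10. Meg3 was at 8010, 7206 and 6688 CPM and Malat1 at 5388, 5823 and 4662 CPM, so the order of the libraries differed between them. Fth1, the ferritin heavy chain that stores iron, ranked 9, Actb, cytoplasmic actin, ranked 15, and Gnas, the stimulatory G protein subunit, ranked 19.

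**Figure D1:**
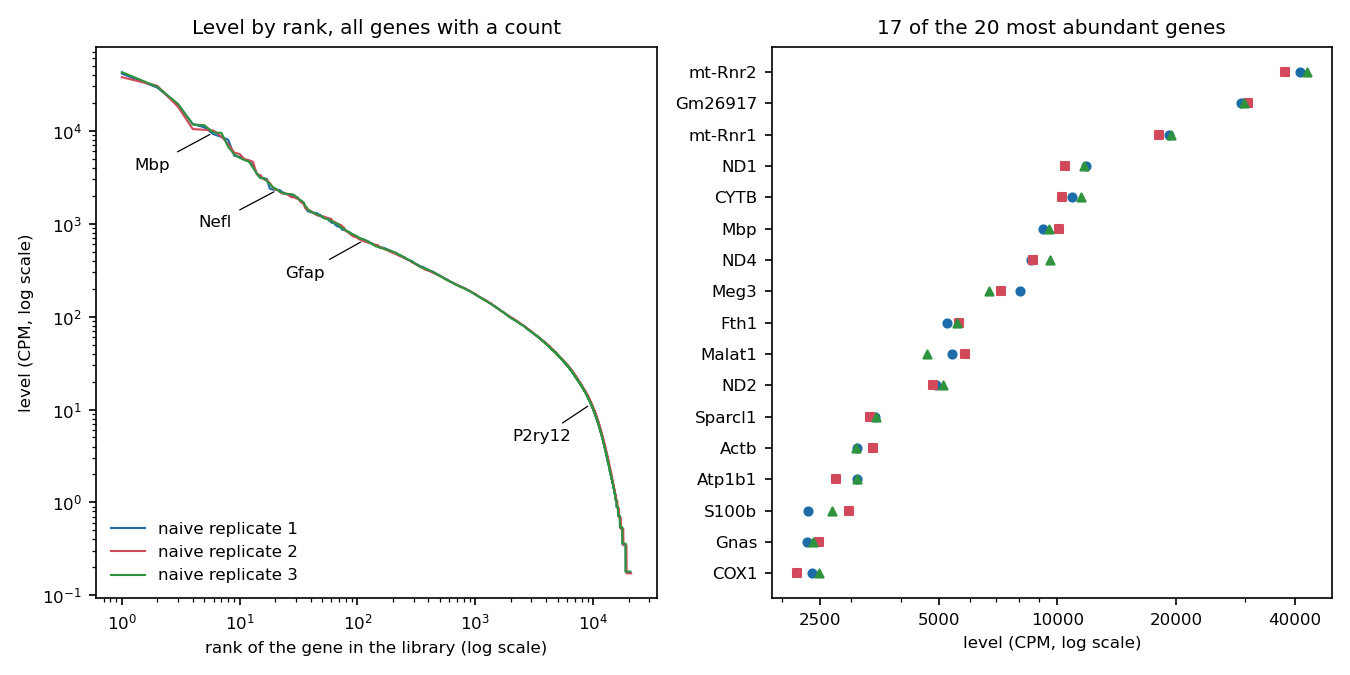
Left: level in CPM against the rank of the gene in its library, both on log scales, with a line for each of the 3 naive libraries, which lie on top of each other; Mbp, Nefl, Gfap and P2ry12 are marked at their mean level. Right: CPM on a log scale of 17 of the 20 genes with the highest mean, with a point for each library; mt-Rnr2 at 37747 to 42870 CPM is the highest.

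Some genes that every cell uses were counted at low levels or not at all. Of the 13 mitochondrial protein genes, ND3, ND4L, COX2, COX3 and ATP8 had no count in any naive library, and ATP6 had 2, 0 and 0 counts. The other 7 were counted, among them COX1 and CYTB at 2350 ± 151 and 10888 ± 616 CPM. Gapdh, a glycolytic enzyme with many processed pseudogenes, was at only 70.2, 60.8 and 67.3 CPM, and Pgk1, another glycolytic enzyme, at 13.9, 14.5 and 16.1 CPM. How reads with several matches were treated is not given in the sources used here, and its part in these low levels was not tested.

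The 3 genes that mark the main cell classes were present in every library. Mbp was at 9187, 10074 and 9509 CPM, a mean of 9590 ± 449 (SD, n = 3). Nefl, the light neurofilament of axons, was at 2295, 2339 and 2302 CPM, a mean of 2312 ± 23.1, rank 21. Gfap, the intermediate filament of astrocytes, was at 551, 818 and 627 CPM, a mean of 665 ± 137, rank 114. Nefl was the steadiest of the 3, with a coefficient of variation (CV, the SD as a percentage of the mean) of 0.999%, against 4.68% for Mbp and 20.6% for Gfap. Replicate 2 was highest for all 3 genes, by the widest margin for Gfap. The ratio of Mbp to Nefl stayed between 4.00 and 4.31, while that of Mbp to Gfap was 16.7, 12.3 and 15.2. Ranks compare CPM between genes without division by length, since the kit reads transcript ends; across 9558 protein-coding genes of 10 CPM or more, Spearman's rho of CPM with transcript length was 0.0794, a description across genes within these libraries.

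The summed level of 15 pan-neuronal genes was 12481, 12440 and 12602 CPM, a CV of 0.673%. All 15 were detected in every library. Nefm and Nefh, the medium and heavy neurofilaments, were at 1908 ± 60.8 and 1270 ± 53.3 CPM, and Snap25, a protein of synaptic vesicle fusion, at 1337 ± 93.8 CPM. In whole tissue, fewer cells of a type and less RNA per cell cannot be told apart, and this holds for every list below. Under this even sum, 10 of the 15 were lowest in replicate 2 and 4 highest there, with a list median of -0.0829 on the log2 scale from the mean of the other libraries. Of all 17313 genes with 10 counts or more, 32.3% were lowest in replicate 2 and 37.4% highest, with a median of 0.0217. Among the 4 were Uchl1, a neuronal ubiquitin hydrolase, at 796, 1160 and 930.1 CPM and Tubb3, neuronal tubulin, at 449, 591 and 490.0 CPM, both singled out after their values were seen.

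Inhibitory neurons were marked by Slc32a1, the vesicular carrier of GABA and glycine, at 186, 154 and 181 CPM. Slc6a5, the glycine transporter of glycinergic neurons, was at 129.7, 98.9 and 124 CPM. Gad1 and Gad2, which make GABA, were at 98.3 ± 7.28 and 54.6 ± 3.51 CPM. The 6 genes of this list summed to 527, 433 and 504 CPM, and 5 of the 6 were lowest in replicate 2 while all 6 were highest in replicate 1. Of all genes, 32.3% were lowest in replicate 2 and 32.4% highest in replicate 1. Excitatory neurons were marked chiefly by Slc17a6, the vesicular glutamate carrier typical of the cord, at 194, 176 and 205 CPM. Slc17a7, the carrier of cortical neurons and many sensory neurons, was at 2.14, 4.32 and 1.26 CPM, and Slc17a8 was at 1.25, 1.90 and 0.541 CPM. Lmx1b and Tlx3, transcription factors of dorsal horn excitatory neurons, were at 12.9 ± 0.463 and 6.93 ± 2.24 CPM.

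Motor neurons and other cholinergic cells showed even levels of their transmitter genes. Chat, which makes acetylcholine, was at 18.7, 21.2 and 20.2 CPM, Slc18a3, its vesicular carrier, at 51.5, 43.2 and 46.4 CPM, and Slc5a7, the choline transporter, at 78.9, 66.3 and 76.7 CPM. Chodl, a marker of fast motor neurons, was at 86.2, 59.6 and 86.2 CPM, lowest in replicate 2. Tns1 headed the list at 132 ± 7.99 CPM. Prph, the peripheral neuron filament, went another way, at 36.2, 103 and 40.4 CPM, and Isl1, a transcription factor shared by motor and sensory neurons, was at 4.81, 12.8 and 2.89 CPM. Both were highest in replicate 2. Chat and Isl1 were singled out after their values were seen. Mnx1, a motor neuron transcription factor of the embryo, had no count in any naive library. The neurons that contact cerebrospinal fluid were visible through Pkd2l1, their ion channel, at 11.4, 12.8 and 12.4 CPM, with Gata2 at 7.29 ± 2.61 CPM and Gata3 at 2.47 ± 1.15 CPM.

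Oligodendrocyte genes had the highest sum of any cell list, 20567, 22744 and 21026 CPM over 18 genes. Mbp alone held 9187, 10074 and 9509 CPM of these sums, and without it the astrocyte list was higher in each library. Mobp, a myelin-associated basic protein, was at 1971, 2104 and 2072 CPM, and Trf, transferrin, was at 960.0, 1058 and 1082 CPM. Replicate 2 was highest for 13 of the 18, against 37.4% of all 17313 genes, with a list median of 0.10 on the log2 scale over the mean of the other libraries and 0.0217 over all genes. Precursor genes summed to 902, 821 and 820 CPM. Olig1 and Olig2, transcription factors of the lineage, were at 328 ± 27.1 and 71.6 ± 8.54 CPM, Cspg5, a proteoglycan, was at 165 ± 13.1 CPM, and Tnr, tenascin R, at 61.8 ± 5.80 CPM.

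Astrocyte genes summed to 12825, 12887 and 13196 CPM, with a CV of 1.54% over 19 genes. S100b was at 2332, 2965 and 2685 CPM. Slc1a2, the main glutamate transporter, was at 2144, 1925 and 2191 CPM, and Glul, glutamine synthetase, at 2074, 1878 and 2101 CPM. Aldoc, a glycolytic aldolase, was at 1860, 1619 and 1791 CPM. Replicate 2 was lowest for 12 of the 19, against 32.3% of all genes, with a list median of -0.0686, and highest for 6. Slc1a2, Glul and Aldoc were among the 12, and S100b and Gfap among the 6.

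Microglial genes were far lower, at 551, 614 and 660 CPM over 20 genes, all of them detected in every library. Ctss, a lysosomal protease, was at 92.3, 97.7 and 108 CPM, and Cx3cr1, the fractalkine receptor, at 69.3, 82.7 and 86.4 CPM. Csf1r, the growth factor receptor on which microglia depend, was at 66.5 ± 3.34 CPM. Replicate 1 was lowest for 13 of the 20 and replicate 3 highest for 14, where 33.8% and 30.2% of all genes were. Genes of macrophages at the borders of the cord were low: Mrc1, the mannose receptor, was at 4.81, 8.46 and 5.77 CPM, Pf4 at 5.52, 8.29 and 5.23 CPM and F13a1 at 3.74, 7.08 and 2.35 CPM, each highest in replicate 2. Cbr2 was highest in replicate 1, at 4.10, 3.63 and 3.43 CPM. Of the 7 genes of this list with 10 counts or more, 6 were highest in replicate 2, against 37.4% of all genes. Cd209f, with 5, 8 and 3 counts, reached 10 counts only with replicate 2 included.

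Summed levels of vessel wall genes were also close. Endothelial genes summed to 720, 687 and 721 CPM over 17 genes, led by Flt1, a receptor of vascular growth factors, at 137 ± 5.26 CPM and Slc2a1, the glucose transporter of the blood-brain barrier, at 97.1 ± 2.76 CPM. Slco1a4, an organic anion carrier, was at 60.3 ± 5.00 CPM and Itm2a at 55.2 ± 9.49 CPM. Genes of pericytes and smooth muscle summed to 360, 362 and 364 CPM over 13 genes, a CV of 0.678%. Rgs5, a regulator of G protein signalling in pericytes, was at 142 ± 3.81 CPM, Vtn, vitronectin, at 68.3 ± 10.1 CPM, Acta2, smooth muscle actin, at 46.5 ± 6.23 CPM, and Notch3 at 20.2 ± 3.24 CPM. Ependymal genes summed to 106, 93.6 and 108 CPM, with Foxj1, the master factor of motile cilia, at 41.0, 46.8 and 46.6 CPM. Replicate 2 was lowest for 8 of the 12, against 32.3% of all genes. Rarres2 was at 18.3 ± 2.66 CPM, Mia at 6.97 ± 0.419 CPM and Rsph1, a cilium protein, at 6.16 ± 2.56 CPM.

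Tissues at the surface of the cord varied more. Meningeal fibroblast genes summed to 572, 1023 and 652 CPM, and 13 of 14 genes with 10 counts or more were highest in replicate 2, against 37.4% of all genes. Col1a2, a chain of type I collagen, was at 156, 279 and 167 CPM, Dcn, the proteoglycan decorin, at 144, 212 and 183 CPM, and Col1a1 at 59.3, 141 and 67.7 CPM. Igf2, a growth factor made by the meninges, was at 90.3, 128 and 86.2 CPM. Their median lay 0.88 on the log2 scale above the mean of the other libraries, and the ratio of the highest to the lowest sum was 1.79, or 1.14 without replicate 2. Schwann cell genes went the other way. Prx, periaxin, was at 31.7, 17.3 and 46.0 CPM, and Cldn19, a tight junction protein of Schwann cells, was at 18.4, 9.84 and 18.0 CPM. Replicate 2 was lowest for 8 of the 12 genes, against 32.3% of all genes, with a list median of -0.50, and the sums were 1097, 661 and 1124 CPM. Drp2, a partner of periaxin, and Ncmap, another peripheral myelin protein, were at 72.2 ± 9.16 and 36.4 ± 5.77 CPM, while Pou3f1, a transcription factor, was at 39.0, 42.1 and 42.8 CPM. Without replicate 2 the highest and lowest Schwann cell sums differed 1.02-fold.

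**Figure D2:**
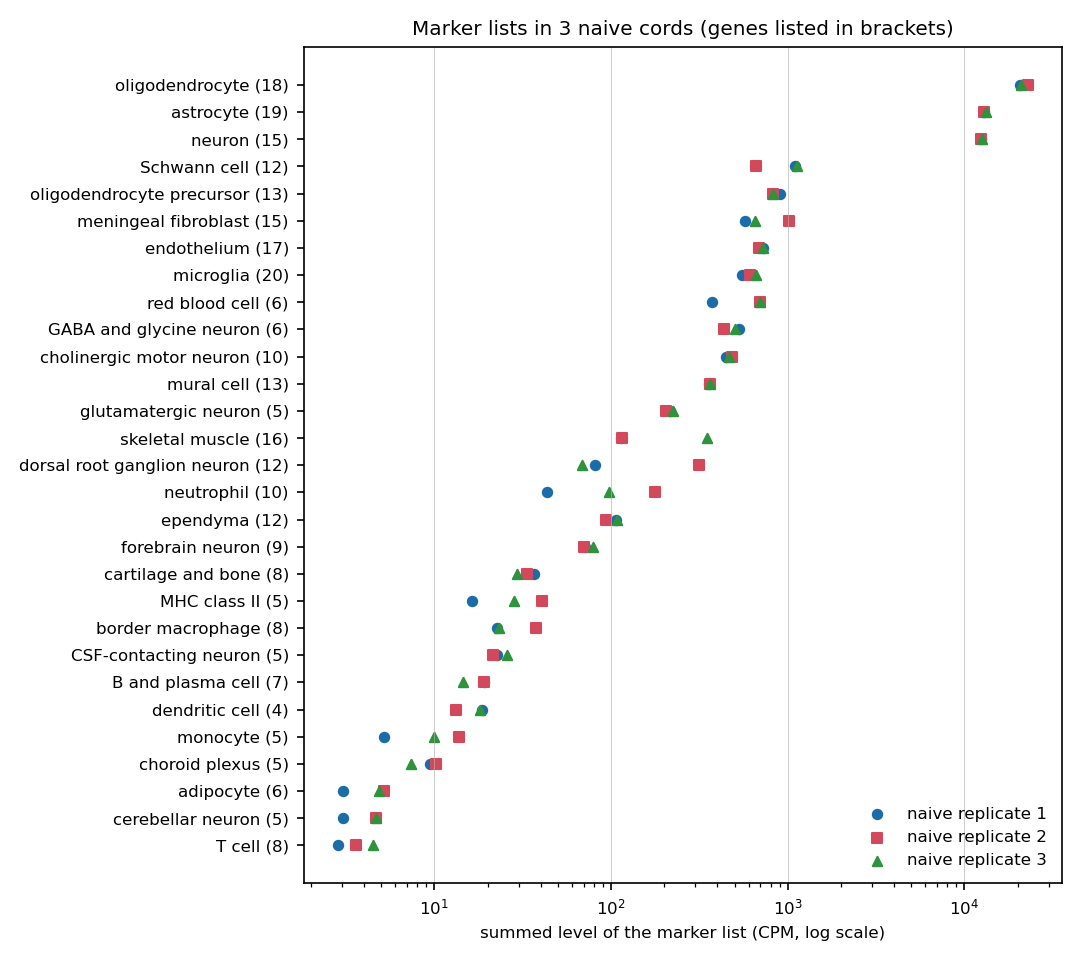
Summed CPM of each marker list on a log scale, with a point for each of the 3 naive libraries and the number of listed genes in brackets; the natural killer cell list, with 1 count in all, is not drawn. The points of the neuron, astrocyte and mural cell lists nearly coincide, whereas those of the dorsal root ganglion, skeletal muscle and neutrophil lists are 4.60-fold, 3.04-fold and 4.07-fold apart.

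Lymphocytes left almost no transcripts in the healthy cord. Among T cell genes, Cd3d, Cd3g, Cd4 and Cd8a had no count in any library, and Cd3e had 0, 2 and 0 counts. Trac, the constant part of the T cell receptor alpha chain, was the only one of the 8 detected in every library, at 1.96, 2.24 and 3.61 CPM, and Trbc2 and Lck were below 1 CPM throughout. Of natural killer cell genes, Klrb1c, Ncr1, Gzma and Prf1 had no count and Nkg7 had 1 in replicate 3. Cd79a and Igkc, defining genes of B and plasma cells, had no count, although Ighm, the immunoglobulin heavy chain of naive B cells, was at 17.5, 16.1 and 13.9 CPM. Jchain and Cd79b were at 0.646 ± 0.188 and 0.464 ± 0.526 CPM. Xcr1, a dendritic cell receptor, had no count, Clec9a and Cd209a had at most 2 counts per library, and Flt3 alone reached 18.4, 12.9 and 17.9 CPM.

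Genes of MHC class II, which presents antigen, were low and uneven. H2-Eb1, H2-Ab1 and H2-Aa, chains of MHC class II, were at 6.06, 11.2 and 7.76 CPM, at 3.74, 10.01 and 7.58 CPM and at 2.85, 10.01 and 6.86 CPM. Cd74, their invariant chain, was at 3.74, 9.49 and 5.59 CPM. In all 4 genes replicate 1 was lowest and replicate 2 highest, against 33.8% and 37.4% of all genes, and the sums of the list differed 2.49-fold, or 1.45-fold without replicate 1. All 5 monocyte genes were highest in replicate 2, and 4 were lowest in replicate 1, against the same 37.4% and 33.8% of all genes. Ly6c2, with 1, 5 and 4 counts, and Chil3, with 0, 6 and 5, reached 10 counts only with replicate 2 included. Lyz2, lysozyme, was at 2.67, 5.35 and 3.97 CPM, Plac8 at 0.713, 4.49 and 3.25 CPM, Ccr2 at 1.60, 2.07 and 1.08 CPM and Chil3 at 0, 1.04 and 0.902 CPM.

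Tissue identity was also visible in what was missing. The forebrain transcription factors Emx1 and Emx2 had no count in any naive library, and Tbr1 had 2, 0 and 1 counts. Neurod2 was nevertheless at 20.7, 17.6 and 15.9 CPM and Ppp1r1b, a phosphatase inhibitor best known from the striatum, at 44.2, 46.3 and 54.1 CPM, with Neurod6 at 3.30 ± 0.872 CPM and Drd1, a dopamine receptor, at 3.26 ± 0.691 CPM. Of cerebellar genes, Atoh1 had no count, Pcp2, Gabra6 and Cbln3 had at most 7 counts per library, and En2 was at 1.78, 2.24 and 4.15 CPM. Ttr, by far the most abundant choroid plexus transcript where that tissue is present, had 0, 3 and 0 counts, while Kcnj13, Kl and Clic6 were at 3.76 ± 1.87, 2.78 ± 0.400 and 1.89 ± 1.60 CPM.

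Hox transcripts mark position along the body. Of 39 genes, 25 were detected in every library, and the sums were 1648, 1491 and 1592 CPM. Paralog group 8 was highest, at 506, 511 and 504 CPM. Hoxb8 and Hoxc8 were at 219 ± 16.6 and 211 ± 21.2 CPM and Hoxd8 at 77.0 ± 4.95 CPM. Groups 4, 5, 6, 7 and 9 were at 138 ± 15.3, 201 ± 6.79, 192 ± 5.46, 99.4 ± 9.79 and 164 ± 11.1 CPM, and group 10, described below, was at 158 ± 52.4 CPM. The leading genes of these groups were Hoxd4 at 70.6 ± 11.9 CPM, Hoxa5 at 108 ± 7.61 CPM, Hoxb5 at 90.1 ± 5.04 CPM, Hoxc6 at 151 ± 10.1 CPM, Hoxa7 at 57.8 ± 6.24 CPM and Hoxc9 at 75.3 ± 5.48 CPM. Hoxb9 and Hoxb7 were at 62.9 ± 6.99 and 41.5 ± 4.54 CPM, Hoxb6 at 39.9 ± 4.94 CPM, Hoxc4 at 33.0 ± 1.85 CPM, Hoxb4 at 26.1 ± 3.94 CPM and Hoxa4 at 8.60 ± 0.784 CPM. At the head end, group 3 was at 81.4 ± 6.82 CPM, mostly Hoxb3 at 58.5 ± 6.57 CPM with Hoxa3 at 14.7 ± 0.822 CPM and Hoxd3 at 8.25 ± 1.60 CPM. Group 2 was at 18.5 ± 3.28 CPM, mostly Hoxb2 at 15.3 ± 3.03 CPM with Hoxa2 at 3.20 ± 0.992 CPM. Hoxb1 and Hoxd1 had between 1 and 7 counts per library, Hoxa6 had 16, 6 and 1, Hoxa9 had 0, 7 and 8, and Hoxc5 was at 3.36 ± 0.603 CPM.

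The posterior end of the Hox code separated replicate 2 from the others. Groups 1 to 9 together were at 1419, 1391 and 1399 CPM, so that replicate 2 held 98.7% of the mean of the others. Group 10 was at 202, 99.96 and 173 CPM. Groups 10 to 13 together were at 229, 100.1 and 192 CPM, and replicate 2 held 47.5%. Hoxd11 had 105, 0 and 69 counts, at least 30.1-fold lower in replicate 2 when its 0 is set to 3 counts. Hoxd10 had 214, 29 and 173 counts, 6.93-fold lower, and Hoxa11 had 40, 1 and 22. Hoxc10, at 707, 427 and 625 counts, was 1.62-fold lower, Hoxa10, at 211, 123 and 159, was 1.56-fold lower, and Hoxd9, at 192, 100 and 127, was 1.65-fold lower. Each fold is the mean CPM of replicates 1 and 3 over that of replicate 2. The change from one paralog to the next within the D cluster was steep: Hoxd8 was at 73.4, 74.9 and 82.6 CPM, even across the libraries, Hoxd9 was lower in replicate 2, Hoxd10 lower still, and Hoxd11 had no count there. Hoxc11, also of group 11, had 3, 0 and 8 counts. Beyond group 11, Hoxd12, Hoxa13 and Hoxb13 had no count anywhere, and Hoxc12, Hoxc13 and Hoxd13 had at most 5 counts per library. Among genes of 10 CPM or more, only 3 of 10095 (0.0297%) lay over 2-fold below both other libraries in replicate 2: Hoxd11, Hoxd10 and Ddn, a dendritic protein, at 13.01, 5.70 and 12.4 CPM. The labels give no cord level or length of cord for any library.

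**Figure D3:**
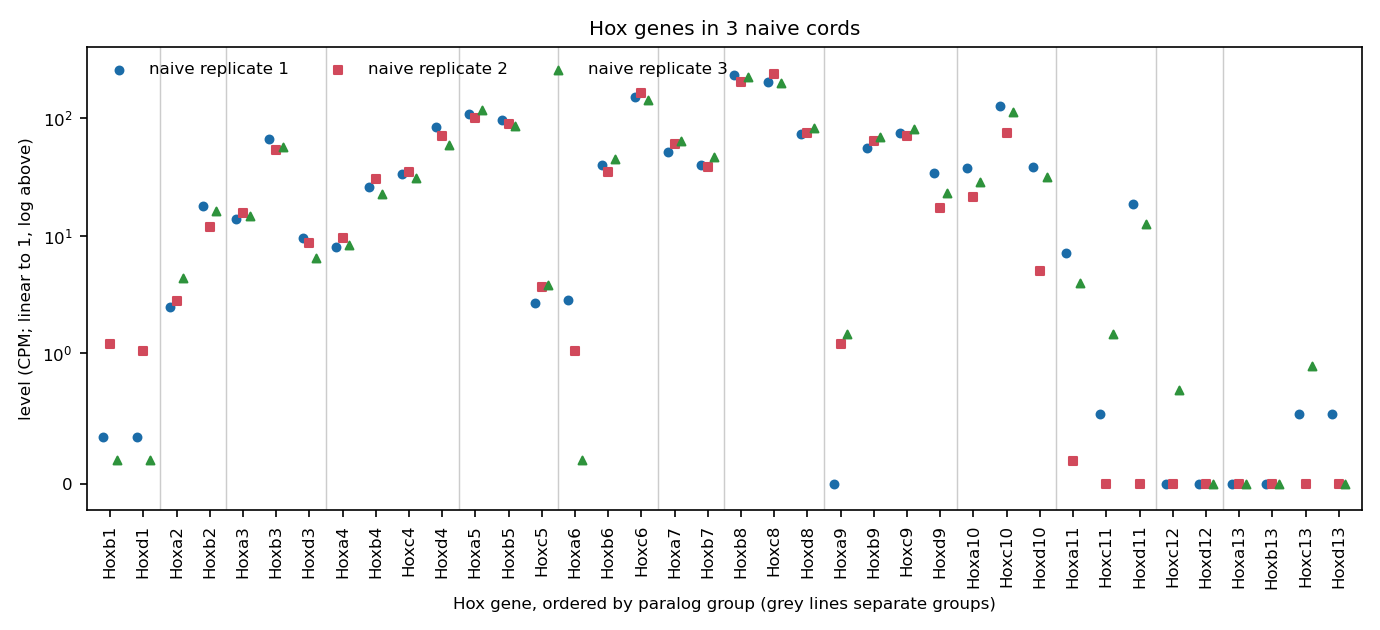
Level of 38 of the 39 Hox genes in the 3 naive libraries, ordered by paralog group, on an axis that is linear up to 1 CPM and logarithmic above. The points of Hoxd8 lie close together, those of low genes such as Hoxa6 and Hoxa9 are scattered, and replicate 2 falls below the others for Hoxd9, Hoxd10 and Hoxd11, where it is at 0.

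The start regions of Hoxd10 and Hoxd11, lower in replicate 2, and of Scn10a and Avil, higher there, are shown as examples of genes that separate this library, from the RefSeq promoter table (build GRCm38.p6), each running from 250 bases before to 50 bases after an annotated start. Capitals mark TAAT, read on both strands (as TAAT or ATTA, which overlap in TAATTA), the core letters shared by many homeodomain sites. Hoxd10 lies at chr2:74691641-74691940, plus strand, with 1 match. Hoxd11 has 2 annotated starts, at chr2:74679308-74679607 with 3 matches and at chr2:74682073-74682372 with 2 matches, both on the plus strand. Scn10a and Avil, sensory neuron genes described next, lie at chr9:119718983-119719282 on the minus strand and at chr10:127000459-127000758 on the plus strand, with 1 match each.
Hoxd10: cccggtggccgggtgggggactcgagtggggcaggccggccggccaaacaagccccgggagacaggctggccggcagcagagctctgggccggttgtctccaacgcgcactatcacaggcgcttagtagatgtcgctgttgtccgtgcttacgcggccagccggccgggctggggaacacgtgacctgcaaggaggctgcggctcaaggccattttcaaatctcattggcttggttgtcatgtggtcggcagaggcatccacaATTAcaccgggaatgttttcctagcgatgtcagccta
Hoxd11, first start: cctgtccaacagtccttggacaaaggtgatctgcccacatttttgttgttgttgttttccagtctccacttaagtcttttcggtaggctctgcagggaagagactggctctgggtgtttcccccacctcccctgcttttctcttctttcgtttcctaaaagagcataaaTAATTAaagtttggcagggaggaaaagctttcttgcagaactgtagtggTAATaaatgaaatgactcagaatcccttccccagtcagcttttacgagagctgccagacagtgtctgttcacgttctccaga
Hoxd11, other start: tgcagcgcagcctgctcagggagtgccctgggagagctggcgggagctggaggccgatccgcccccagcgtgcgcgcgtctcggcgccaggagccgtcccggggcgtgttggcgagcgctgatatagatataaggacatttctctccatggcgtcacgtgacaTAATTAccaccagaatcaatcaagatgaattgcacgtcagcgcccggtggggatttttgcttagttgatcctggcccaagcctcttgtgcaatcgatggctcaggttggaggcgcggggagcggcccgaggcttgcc
Scn10a: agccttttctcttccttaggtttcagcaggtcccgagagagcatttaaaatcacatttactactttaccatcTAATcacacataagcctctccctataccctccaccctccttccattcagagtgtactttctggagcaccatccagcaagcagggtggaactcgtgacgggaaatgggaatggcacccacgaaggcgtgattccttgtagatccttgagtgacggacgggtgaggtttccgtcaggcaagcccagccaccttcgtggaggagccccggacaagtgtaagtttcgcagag
Avil: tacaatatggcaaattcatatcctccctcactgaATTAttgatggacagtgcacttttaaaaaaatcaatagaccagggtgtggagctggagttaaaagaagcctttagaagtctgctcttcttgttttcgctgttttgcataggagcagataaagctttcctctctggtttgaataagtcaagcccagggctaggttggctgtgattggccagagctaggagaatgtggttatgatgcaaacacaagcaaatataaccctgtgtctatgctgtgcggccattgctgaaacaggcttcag
Such a match is common: 58.0% of 32851 promoters of this length in the table hold one. The starts differed more in CG dinucleotides, with 22 at Hoxd10, 25 at the other start of Hoxd11 and 4 at its first, 11 at Scn10a and 2 at Avil, against a median of 7 over all promoters. These are descriptions of letters in the reference and were measured in none of the libraries.

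Genes of sensory neurons of the dorsal root ganglia set replicate 2 apart. Scn10a and Scn11a, sodium channels of pain-sensing neurons, had 0, 238 and 0 counts and 0, 224 and 0 counts, at least 76.4-fold and 71.9-fold higher in replicate 2 when each 0 is set to 3 counts per library. Pirt, a membrane protein that binds the heat channel, had 0, 165 and 0 counts, at least 53.0-fold higher. Mrgprd, a receptor of fine skin afferents, had 0, 69 and 0 counts, Trpv1, the capsaicin receptor, 0, 34 and 0, and Prdm12, a factor of the pain lineage, 0, 22 and 0, at least 22.1-fold, 10.9-fold and 7.06-fold higher. Avil, advillin, had 3, 238 and 2 counts. P2rx3, an ATP-gated channel, had 6, 82 and 11 counts and was 9.27-fold higher. Apart from P2rx3, which was detected in every library, these 8 genes had at most 3 counts in the other libraries.

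Another 3 genes of the list are also made inside the cord, and were present in every library. Pou4f1 had 97, 200 and 73 counts, Drgx, a transcription factor of dorsal horn and ganglion neurons, 248, 353 and 204, and Calcb, a calcitonin gene-related peptide, 100, 161 and 86. Replicate 2 was higher here by 2.27-fold, 1.505-fold and 1.67-fold. All 12 genes were highest in replicate 2, against 37.4% of all genes, and the sums were 81.1, 315 and 68.4 CPM, 4.60-fold apart, or 1.19-fold without replicate 2. The list median was 3.82 on the log2 scale, and that of all genes 0.0217. Some of the 12, such as Scn10a and Avil, reached 10 counts in total only through replicate 2 itself.

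In all, 42 genes of 10 CPM or more (0.416%) lay over 2-fold above both other libraries in replicate 2. This level is the mean of all 3 libraries, and many of the 42 reached it through replicate 2 itself: among genes with a mean of 10 CPM or more over the other libraries, 19 of 10043 (0.189%) lay above. Tmem233, a membrane protein, led them with 4, 738 and 1 counts. Fxyd2, a modulator of the sodium pump, was at 2.14, 67.2 and 1.98 CPM, Aqp1, a water channel, at 1.25, 30.2 and 2.17 CPM, and Ngfr, a neurotrophin receptor, at 5.35, 45.1 and 3.25 CPM. Trarg1, Ppp1r1c and the transcription factor Isl2 were at 1.07, 38.2 and 1.80 CPM, at 0.891, 31.2 and 1.80 CPM and at 2.14, 24.5 and 3.79 CPM. Among others, singled out after their values were seen, were Calca, the main calcitonin gene-related peptide of sensory fibres, at 51.9, 147 and 47.1 CPM, Scn9a, another sodium channel of sensory neurons, at 9.44, 55.4 and 9.38 CPM, and Piezo2, the touch channel, at 10.7, 56.3 and 7.94 CPM. Meningeal collagens were in the same group, with Col3a1 at 23.0, 62.1 and 25.4 CPM, whereas Prx and Cldn19 of Schwann cells were lowest in that library. Whether ganglia, roots or meninges were left on any cord is not stated, and their part in these values was not tested.

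Skeletal muscle genes set replicate 3 apart in the same manner. Acta1, skeletal actin, had 41, 27 and 357 counts and was 10.8-fold higher there. Myh4, a fast myosin heavy chain, had 18, 38 and 184 counts, and Myh2 and Myh1, 2 others, had 6, 9 and 82 and 9, 6 and 55. Tnni2, a fast troponin, had 2, 4 and 110 counts, Tnnt3 18, 37 and 167, and Tnnc2 16, 18 and 131. Replicate 3 stood above both others in each.

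The rest of the contractile list had the same order at the top. Ckm, muscle creatine kinase, had 5, 17 and 94 counts, Atp2a1, the calcium pump of fast fibres, 18, 17 and 110, Mb, myoglobin, 9, 4 and 43, and the myosin light chains Mylpf and Myl1 20, 23 and 86 and 4, 14 and 84. Actn3 had 4, 8 and 17 counts, Casq1 17, 11 and 24, and Myoz1 0, 2 and 8. Pygm, muscle glycogen phosphorylase, which astrocytes also make, was the exception at 456, 433 and 380 counts. Replicate 3 was thus highest for 15 of 16 genes, against 30.2% of all genes, with a median of 2.64 on the log2 scale against -0.0134 over all genes. Without Pygm the sums were 33.3, 40.6 and 280 CPM, 7.58-fold higher in replicate 3 than the mean of the others. With it they were 115, 115 and 349 CPM, and 1.01-fold apart without replicate 3. Ttn, titin, which was on no list, was at 11.2, 12.6 and 87.0 CPM. Genes of cartilage and bone did not share this order: Acan was at 20.8, 22.8 and 19.3 CPM, Col2a1 at 8.37, 3.11 and 2.17 CPM, and Sp7 and Dmp1 at 2.36 ± 0.273 and 1.91 ± 1.21 CPM. Fat cell genes were near the floor, with Lep at no count, Adipoq at 0, 4 and 1 counts, Plin1 at 0, 0 and 4 counts, Cfd at 2.26 ± 1.06 CPM and Ucp1 at 1.45 ± 1.46 CPM.

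**Figure D4:**
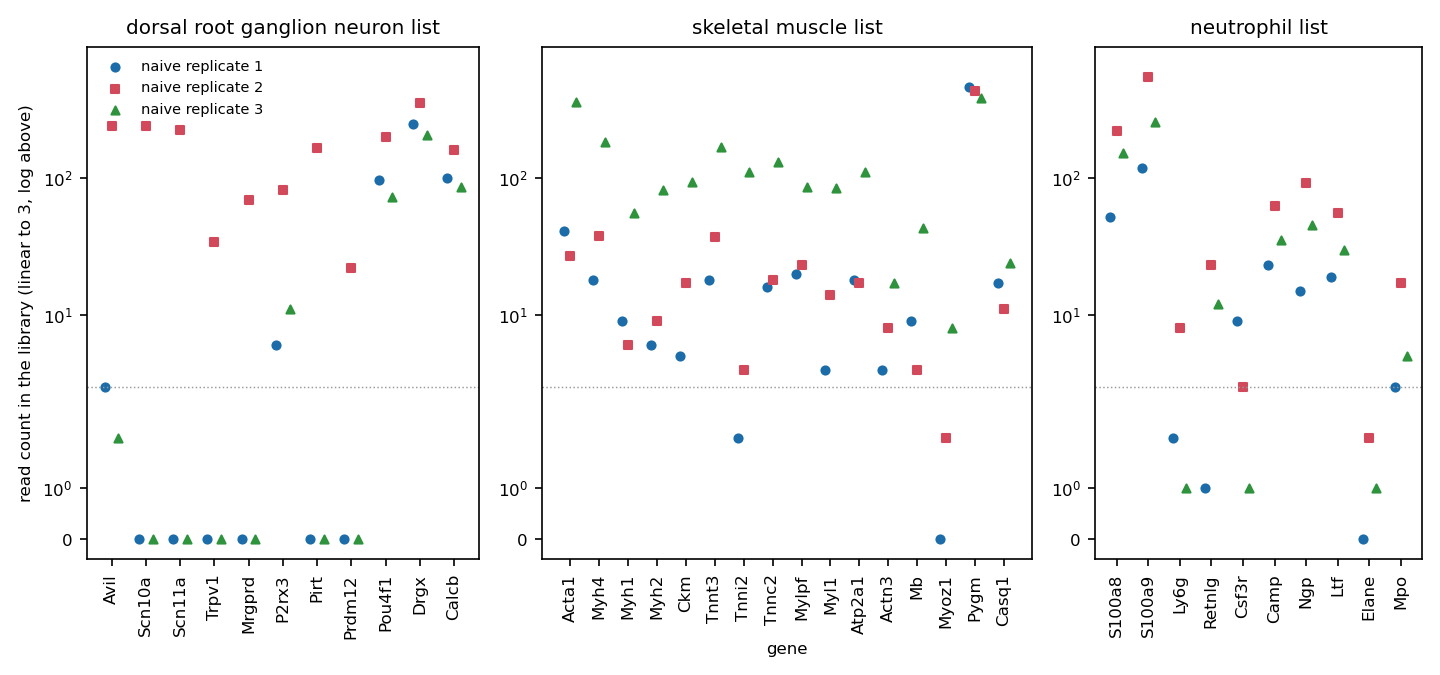
Read counts per library of 11 of the 12 dorsal root ganglion, 16 skeletal muscle and 10 neutrophil genes, on an axis that is linear up to 3 counts (dotted line) and logarithmic above. Replicate 2 is highest for all 11 ganglion genes drawn, replicate 3 for 15 of 16 muscle genes, and replicate 2 for 9 of 10 neutrophil genes, Csf3r being the other one.

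Blood genes were lowest in replicate 1. Hbb-bs and Hbb-bt, adult beta globins, were at 154, 234 and 273 CPM and at 64.0, 142 and 137 CPM, and Hba-a1 and Hba-a2, alpha globins, at 85.9, 191 and 164 CPM and at 65.7, 114 and 99.2 CPM. The globin copies are near-identical, so that only their sum is secure, 0.0370%, 0.0681% and 0.0674% of counts. All 6 red cell genes were lowest in replicate 1, against 33.8% of all genes, with a median of -1.08, and the sums were 1.87-fold apart, or 1.00-fold without that library.

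Neutrophil genes had a different order, with replicate 2 at the top. S100a9 and S100a8, the paired calcium-binding proteins that fill neutrophils, had 119, 541 and 254 counts and 52, 219 and 153 counts. The granule genes Ngp, Camp and Ltf had 15, 92 and 45, 23, 62 and 35, and 19, 55 and 30 counts. Retnlg had 1, 23 and 12 counts, Mpo, myeloperoxidase, 3, 17 and 5, Ly6g 2, 8 and 1, and Elane 0, 2 and 1. Csf3r, a cytokine receptor, went against them at 9, 3 and 1. Of 9 genes with 10 counts or more, 8 were highest in replicate 2 and 7 lowest in replicate 1, against 37.4% and 33.8% of all genes, and the sums were 43.3, 176 and 96.9 CPM. They remained 1.82-fold apart without replicate 1 and 2.24-fold apart without replicate 2. Ly6g and Mpo reached 10 counts in total only with replicate 2 included.

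Among signalling genes of the cord, Glra1, the adult glycine receptor subunit that carries inhibition in the cord, was the highest of 20 transmitter receptor genes at 672, 598 and 633 CPM, rank 124, and Glrb, its partner subunit, was at 168 ± 17.6 CPM. Gria2, an AMPA receptor subunit, was at 243 ± 25.6 CPM, Gabra2, a GABA receptor subunit, at 177 ± 9.93 CPM and Grin1, the obligate NMDA receptor subunit, at 173 ± 15.2 CPM. Of 18 receptor genes with 10 counts or more, 13 were lowest in replicate 2, against 32.3% of all genes, with a list median of -0.15. All 22 neuropeptide and granule genes were detected in every library. Scg2, Chga and Chgb, granins of dense-core vesicles, were at 356 ± 15.3, 240.3 ± 9.57 and 236 ± 17.7 CPM, and Sst, somatostatin, was at 159, 130.2 and 161 CPM. Other peptides were less even: the CV was 68.9% for Calca, given above, 37.0% for Vip, at 2.14, 4.66 and 3.43 CPM, and 33.0% for Crh, at 6.06, 3.11 and 4.33 CPM. Vip and Crh were singled out after their values were seen. Opioid receptors were low, with Oprl1 at 28.9 ± 1.86 CPM, Oprk1 at 12.4 ± 1.48 CPM, Oprd1 at 4.30 ± 0.660 CPM and Oprm1, the morphine receptor, at 2.01 ± 0.744 CPM. Monoamine neurons send fibres into the cord from cell bodies in the brainstem. Of their genes, Dbh had no count, Tph2 and Slc6a4 at most 1 count per library, Slc18a2 had 4, 2 and 0 and Slc6a2 0, 1 and 4, whereas Th was at 2.67, 7.08 and 5.41 CPM and Ddc at 17.5 ± 1.45 CPM.

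All listed clock, immediate early, glucocorticoid response, heat shock and cholesterol synthesis genes were detected in every library. Of clock-controlled genes, Tef was at 127, 137 and 159 CPM, Hlf at 114 ± 7.78 CPM, Bhlhe41 at 103 ± 12.7 CPM and Nr1d2 at 98.3 ± 9.55 CPM. Immediate early genes summed to 389, 421 and 349 CPM, with Jund at 149 ± 13.6 CPM, Jun at 59.95 ± 7.77 CPM, Egr1 at 48.1 ± 5.04 CPM and Dusp1 at 19.1 ± 4.29 CPM. The highest and lowest sums differed 1.20-fold. Of the 18 genes, 10 were highest in replicate 2 and 10 lowest in replicate 3, against 37.4% and 33.8% of all genes. Immediate early genes rise within minutes of neural activity or handling, and the part of either in these values was not tested. Mt1 and Mt2, metallothioneins that respond to glucocorticoids and metals, were at 1418 ± 93.2 and 1140 ± 108 CPM, Tsc22d3 at 153 ± 4.00 CPM and Zbtb16 at 66.3 ± 2.64 CPM. Heat shock genes were led by Hsp90aa1 at 924 ± 48.5 CPM, Cryab, a small chaperone of glia, at 402 ± 6.63 CPM, Hspa5 at 233 ± 12.3 CPM and Hsph1 at 206 ± 6.07 CPM. Hmgcs1, an early enzyme of cholesterol synthesis, was at 558, 647 and 500.1 CPM, with Msmo1 at 215 ± 7.85 CPM, Cyp51 at 150.4 ± 11.3 CPM and Sc5d at 118 ± 8.58 CPM.

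Interferon-stimulated genes were low, led by Ifi27 at 58.5 ± 7.23 CPM, Ifit3 at 11.0 ± 2.45 CPM and Rsad2 at 7.97 ± 0.530 CPM, and Mx1 had no count. Genes of dividing cells were near 10 CPM or lower, with Pcna at 9.55 ± 1.66 CPM, Mcm2 at 9.27 ± 0.463 CPM, Top2a at 6.47 ± 2.03 CPM and Cenpf at 3.34 ± 1.92 CPM. Tert, the telomerase protein from which the peptide of the treated groups derives, had 0, 1 and 0 counts, Terc had none, and Dkc1 was at 87.9 ± 8.97 CPM. Xist, expressed from the inactive X chromosome, was at 618, 619.6 and 599.6 CPM, and the Y-linked genes Ddx3y, Uty, Eif2s3y, Kdm5d and Usp9y had no count in any naive library, which allows up to 3 counts of each per library.

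Commonly used reference genes ranged from very even to uneven. Rps18, a ribosomal protein, had a CV of 0.299%, at 79.6, 79.6 and 79.2 CPM. Rer1 had a CV of 1.47%, Ywhaz 2.80%, Rpl13a 3.37%, Rpl27 3.64%, Hprt 4.82%, Tfrc 5.31%, Actb 5.49%, Tbp 5.64%, Sdha 6.15%, Gapdh 7.31%, Pgk1 7.52%, Ppia 8.12%, Rplp0 9.08%, Eef1a1 9.64% and Rpl19 11.0%. B2m, the MHC class I light chain, had 16.0%, at 229, 315 and 296 CPM, lowest in replicate 1. Gusb had 31.1%, at 10.4 ± 3.22 CPM, with 49, 48 and 78 counts. Each CV includes counting error, which is larger at fewer counts. Counting error alone gives a median SD of log2 CPM of 0.12 from 10 to 30 CPM, as Gusb was. From 30 to 100 CPM, as Rps18 was, it gives 0.0709. The steadiest genes of 100 CPM or more were not on the reference list, but that limit leaves out Rps18. Its CV of 0.299% was close to the 0.291% of Arl6ip1. Ank1, an ankyrin, was at 101 ± 0.0792 CPM, Sem1, a proteasome subunit, at 125 ± 0.206 CPM, Rpl11 at 321 ± 0.755 CPM and Arl6ip1 at 534 ± 1.55 CPM. These 4 genes were among the 5 lowest of 1942 in spread. Their SDs of log2 CPM, 0.00102 to 0.00422, were below the medians that counting error alone gives, 0.0411 for genes from 100 to 300 CPM, as Ank1 and Sem1 were, and 0.0245 from 300 to 1000 CPM, as Rpl11 and Arl6ip1 were.

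Over all 10095 genes of 10 CPM or more, the median SD of log2 CPM was 0.12, and 78.6% of genes were under 0.2. Counting error alone would give a median of 0.0820 on the same scale. From 10 to 30 CPM the median was 0.17 against 0.12 from counting, from 30 to 100 CPM 0.11 against 0.0709, and from 100 to 300 CPM 0.0747 against 0.0411. From 300 to 1000 CPM it was 0.0649 against 0.0245, and at 1000 CPM or more 0.0679 against 0.0121, so that relative to counting error the spread was larger in each higher class. Above counting error, the biological coefficient of variation, edgeR's estimate of the spread between libraries, was 9.35%, and 6.49% without replicate 2. An SD above 0.5 was found for 104 genes and above 1 for 21. Of the 15 most variable, 10 were highest in replicate 2, led by Tmem233 and Scn10a, 4 were the muscle genes Acta1, Myh4, Ttn and Tnnt3, and the other was Hoxd11. Those 10 reached a mean of 10 CPM only through replicate 2 itself, and Acta1, Myh4 and Tnnt3 only through replicate 3.

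Replicates 1 and 3 were the closest pair. Their log2 CPM correlated with a Pearson's r of 0.987 across these genes, against 0.976 for either with replicate 2, where genes are not independent replicates. Over 2-fold apart were 10 genes between replicates 1 and 3, 63 between 1 and 2, and 70 between 2 and 3. The limit of 10 CPM was set on the mean of all 3 libraries. Genes such as Scn10a, with 0, 238 and 0 counts, thus entered through replicate 2 itself and count in both of its pairs. No pair agreed within sampling noise: the mean chi-square per gene was 4.97, 2.67 and 4.68 for the pairs 1 and 2, 1 and 3, and 2 and 3. The medians, 1.28, 1.01 and 1.18, were closer together, so genes far apart weigh on the means. Sampling noise alone gives a mean of 1 and a lower median. In replicate 1, 0 genes lay over 2-fold above both others (0%) and 3 below (0.0297%), which were S100a8, S100a9 and Hbb-bt. The genes farthest above in that library, Fam120aos at 21.2, 11.4 and 10.6 CPM and Jmjd4 at 17.1, 9.15 and 9.56 CPM, did not reach 2-fold. In replicate 3, 4 genes lay above (0.0396%), the muscle genes Acta1, Myh4, Ttn and Tnnt3, and 1 below (0.00991%), 2310067E19Rik, at 14.4, 16.9 and 6.86 CPM. Of the 4 muscle genes, only Ttn had a mean of 10 CPM or more over the other libraries.

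**Figure D5:**
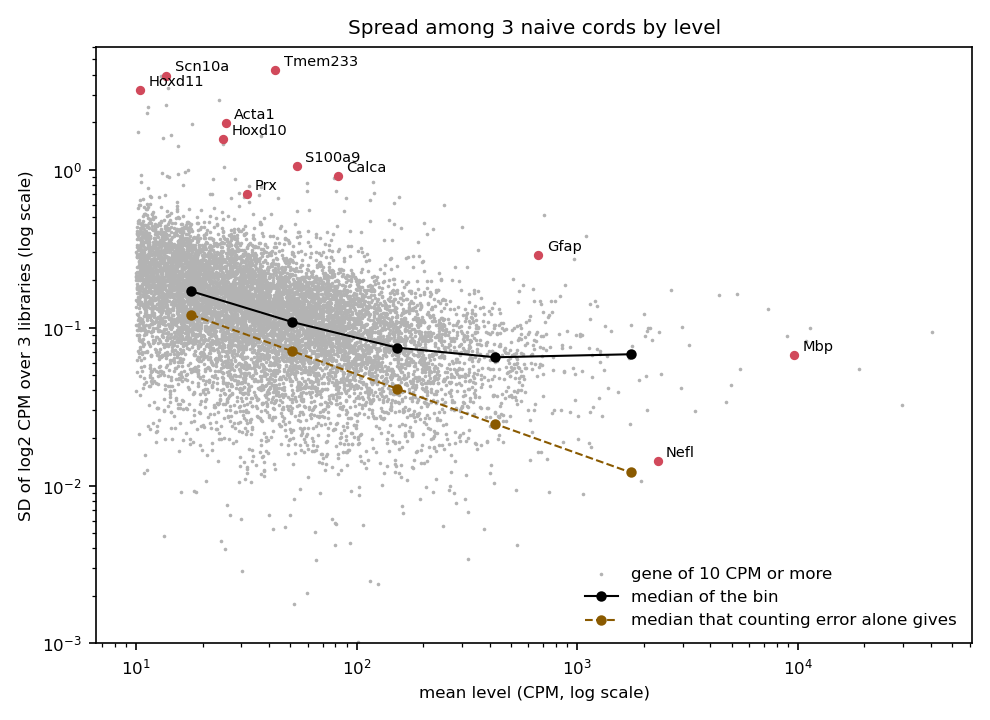
SD of log2 CPM over the 3 naive libraries against mean CPM, both on log scales, with a grey point for each of 10095 genes of 10 CPM or more; the black line joins bin medians, the dashed line the medians that counting error alone gives, and named genes are in red. Nefl lies near the counting line, and Tmem233, Scn10a and Hoxd11 lie above all bin medians.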

How the data were processed

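The authors deposited raw read counts per gene symbol, 40879 symbols in 1 table and the same values in 9 single-library files, per the file headers and a comparison of both. The submitters' processing notes name STAR, HTSeq, FastQC and build GRCm39; versions, annotation release, strand setting, treatment of reads with several matches and use of molecular identifiers are not given in the sources used here. Since counts of 3′ reads may include amplification copies, floors cover counting error only.

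Only the 3 naive libraries were used, grouped by the treatment label, and no groups were compared or tested. The columns of the other 6 libraries entered nothing but the comparison of the table with the single-library files. CPM was computed from library totals of 5542411 to 5792583 counts. Direction counts used genes with 10 counts or more in total, and log2 values a prior count of 2. Some genes reached 10 counts only through the library where they were highest. A library's log2 difference is its value minus the mean of the other libraries. Normalisation factors (TMM) and the biological coefficient of variation came from edgeR 4.0.16, with DESeq2 1.42.0 as an alternative, in R 4.3.3; plots used matplotlib 3.10.9 and Python 3.11.15. The code for the spread estimates was tested on simulated data. RefSeq gave a gene type for 37679 symbols, which hold 96.3% of counts. Promoters are from RefSeq (GRCm38.p6), and no other coordinates are given because the reference build differs from that of the files.

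The libraries and the 47 gene lists (540 entries, all found in the table, 14 by another spelling) were chosen with earlier results of these data known. The text names the 20 most abundant genes, the 4 most abundant of each list, listed genes with no count, all members of the Hox, reference and sex chromosome lists and of lists over 3-fold apart between libraries, the 15 most and least variable genes, and up to 8 genes farthest above or below in each library. Some genes that this rule names are left out here, and counts and sums over a list include them.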

Additional observations from a re-analysis of the deposited data

How the results depend on the processing

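No paired analysis was possible because the naive libraries form a single group and no result comes from a test. Of the recomputed values, 95 stayed within the limit set for their kind and 29 moved further. The limit was 1.5 times for counts of genes and ratios between libraries, 1 SD between libraries for levels and ranks, and 1 SD over the fits that leave out a library for estimates of spread, so that a level could pass it with a change under 1.5 times. Dividing CPM by transcript length left 280 genes in place of 744 holding 50% of mean counts, and put Mbp at rank 10 and Nefl at rank 45; leaving mitochondrial genes out of the totals put Mbp at 10645 CPM and rank 2 and Nefl at 2567 CPM and rank 14. With the mean of log2 CPM in place of the sum, the libraries differed 15.4-fold in the dorsal root ganglion list and 6.02-fold in the muscle list. The median SD of log2 CPM was 0.28 without a filter, 0.17 from 1 CPM, 0.13 from 5 CPM and 0.0717 from 100 CPM, as lower genes carry more counting error, and the biological coefficient of variation was 6.65% from 100 CPM and 11.9% by DESeq2. Leaving out each library in turn gave 732 to 753 genes for 50% of counts, 16564 to 16666 genes detected, 9348 to 9791 CPM for Mbp, 2299 to 2320 for Nefl and 589 to 722 for Gfap. The ratio of the highest to the lowest library ranged from 1.19 to 4.60 for ganglion, 1.01 to 3.04 for muscle, 1.82 to 4.07 for neutrophil, 1.45 to 2.49 for MHC class II, 1.02 to 1.70 for Schwann cell, 1.14 to 1.79 for meningeal and 1.00 to 1.87 for red cell genes. With a library left out, the number of detected genes can only rise or stay equal, and these ratios can only fall or stay equal. The median SD ranged from 0.0884 to 0.10, smaller by construction over 2 values, and the biological coefficient of variation from 6.49% without replicate 2 to 10.6%. The 42 genes over 2-fold above both others in replicate 2 were 41 under TMM or DESeq2 scaling, and 19 when the mean of 10 CPM was required of the other libraries only; the 4 in replicate 3 were then 1. These alternatives were chosen after seeing the data. Depth limits what can be said of genes below 3 counts. With 3 libraries, an SD is itself imprecise.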
